A study of Zea mays with 48 samples.

Results

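A stretch of maize chromosome 5 held a dense cluster of binding sites of ZmCCA1b, a MYB transcription factor of the circadian clock, around 3 genes: GRMZM2G427369, GRMZM2G394732 and GRMZM2G055151. Its members were all peaks of the 4 deposited peak lists that start between positions 209900000 and 210100000 of chromosome 5 (B73 reference, AGPv2), a window of 200 kb. This gave 67 of 10136 peaks: 18 of 3364 in the inbred B73, 16 of 2102 in the inbred Mo17, 16 of 2796 in the hybrid B73 x Mo17 (BM) and 17 of 1874 in the reciprocal hybrid Mo17 x B73 (MB). The peaks were chosen by position alone, but the window itself was picked on its deposited log2(ChIP/Input) values, which are therefore given as a description.

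Chromatin was taken from aerial tissues of seedlings of the 4 genotypes 5 days after planting, grown in long days and sampled at ZT3, ZT9 and ZT15. ZT counts the hours since lights came on, so ZT3 is morning, ZT9 afternoon and ZT15 late in the light period. Each genotype and time point had 2 replicates of ZmCCA1b ChIP and 2 of input DNA, 48 libraries in all. The lists hold a single pooled log2(ChIP/Input) value per peak, genotype and time point, so no value below has a replicate error, and the read depth behind a single value is unknown, although the authors had drawn equal numbers of reads from all libraries. The antibody was raised against the DNA-binding domain, which other ZmCCA1 copies share.

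CCA1 is a morning-expressed regulator at the core of the plant clock, and it binds short elements in promoters of genes that are expressed at a set time of day. The study describes it as a repressor of evening-phased genes and an activator of morning-phased ones. Photosystem II uses light to draw electrons from water, and some of its reaction centre proteins hold the pigments where charge separation takes place. GRMZM2G427369 was described in the study as a photosynthetic reaction center protein gene and GRMZM2G394732 as the gene of photosystem II reaction center protein Z, and both were grouped there with carbon fixation genes although these proteins act in the light reactions. No description of GRMZM2G055151 was found in the sources used here. In land plants reaction centre proteins are usually encoded by plastid DNA, of which nuclear genomes carry copies; the study kept read pairs placed exactly once, and whether reads from plastid DNA add to these values was not tested.

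The genome sequence of the neighbourhood was not used here. The study reported that the expression shift of both photosystem genes matched its binding shift in the hybrids. It named them among exceptions, as they were expressed at higher levels at most time points. Their transcripts were followed with designed primers, which are shown because they are the sequences by which these genes were measured. They were not placed on the genome here, and each is written 5′ to 3′.
GRMZM2G427369 forward: tggtccacagggttcataacta
GRMZM2G427369 reverse: aacagtcggacaagtgggtaat
GRMZM2G394732 forward: gcattaattgcaacttcctcag
GRMZM2G394732 reverse: ccagaaagactaatccaatcca
All of them have 22 bases, with a GC content of 45.5% for the first pair and 40.9% for the second.

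The peaks lay in the same places in all genotypes. Counting peaks that overlap by at least 1 bp as 1 locus, 15 loci were found in all 4 lists, out of 471 such loci genome-wide, and they were packed into 74759 bp from 209939964 to 210014723. Peaks covered 44.8% of that block in B73 and 45.3% in Mo17, with 45.0% in BM and 47.0% in MB. The gaps between neighbouring loci ranged from 629 to 11320 bp, with a median of 1912 bp. Outside the block, MB had a peak at chr5:210023310-210024393 with no assigned gene, which gave 1.42, 1.33 and 0.63 at ZT3, ZT9 and ZT15. B73 and MB also had a peak at GRMZM2G069099 further on, with 1.70, 1.22 and 2.04 in B73 and 0.50, 1.37 and 1.13 in MB. BM and Mo17 had no peak outside the block.

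Peak borders repeated closely between genotypes. The 4 starts of a locus spanned 2 to 196 bp, with a median of 19 bp, and in 6 of 15 loci they fell within 10 bp. The 4 ends spanned 4 to 204 bp, with a median of 79 bp. Restricted to loci with a single peak in every list, the median span of the starts was 25.5 bp over 12 loci of the neighbourhood and 158 bp over all 373 such loci, and that of the ends 78.5 and 160 bp.

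**Figure D1:**
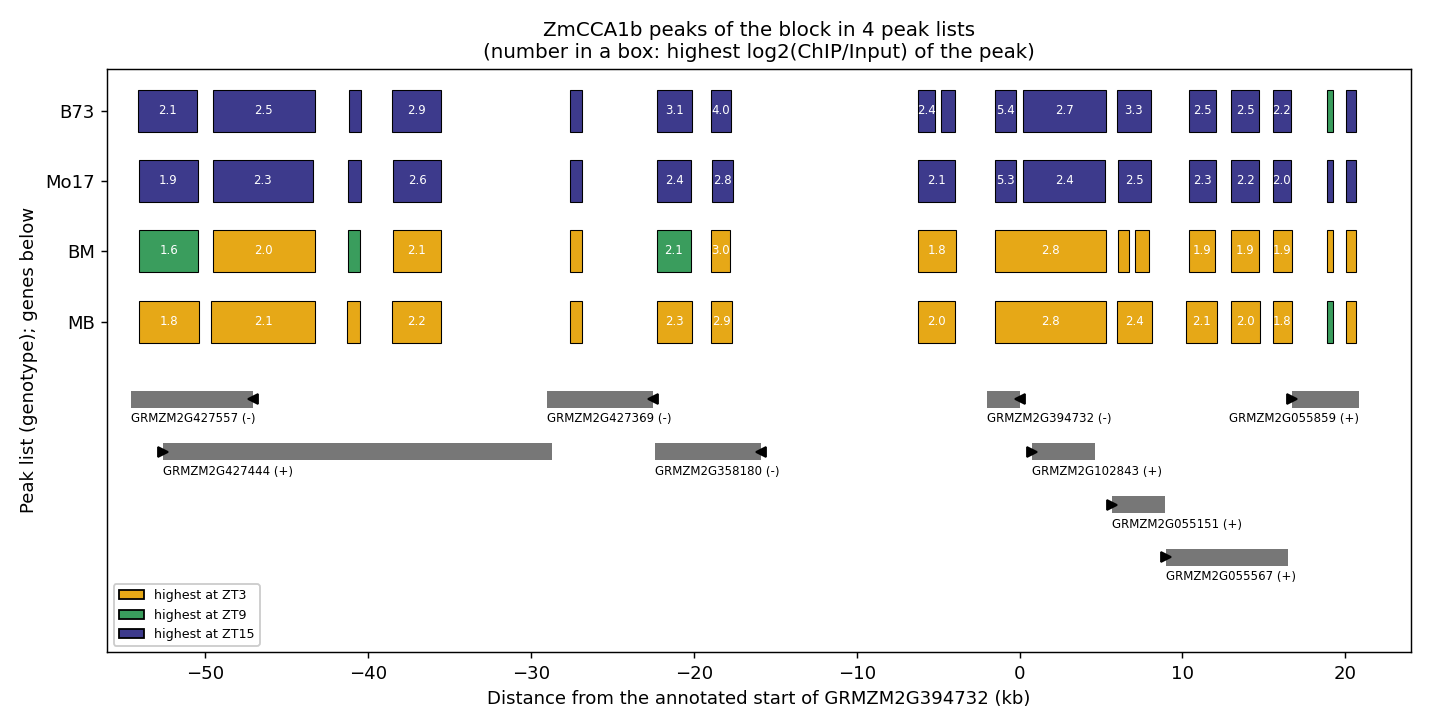
Peaks of the block in the 4 lists (boxes, to scale) and the genes to which the lists assign them (grey bars, arrow at the annotated start), against the distance from the start of GRMZM2G394732 in kb; colour gives the time point of the highest value and the number in a box that value. The 15 loci line up in all lists. As deposited, 33 of 34 inbred peaks of the neighbourhood were highest at ZT15 (26.3% of the B73 list and 23.0% of the Mo17 list). Of the hybrid peaks, 28 of 33 were highest at ZT3 (63.2% of the BM list and 51.7% of the MB list). With list medians subtracted, ZT15 was highest in 13 of 16 BM peaks and 15 of 17 MB peaks.

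Covered length differed little: 35446 bp in B73 and 33844 bp in Mo17, with 33622 bp in BM and 37483 bp in MB, so the 2 hybrids did not stand apart from the 2 inbreds. Peaks here were wide, with a median of 1441 bp against 1024 bp over the whole list in B73 and 1715 against 979.5 bp in Mo17, with 1392.5 against 1036.5 bp in BM and 1794 against 973 bp in MB. Among the 200 kb windows with at least 1 peak, the neighbourhood ranked 3 by number of peaks in B73, BM and MB, 4 in Mo17, and 4 by covered length in every list, out of 2307, 1478, 1930 and 1374 windows in B73, Mo17, BM and MB, where the median window held 1 peak. Its limits fell in sequence without peaks. The nearest peak before the window lay 134439 to 649472 bp away, with a highest value of 1.85 in B73 and 1.26 in Mo17, with 1.33 in BM and 1.64 in MB. The nearest one after it, at GRMZM2G152827 in every list, lay 47951 to 48240 bp beyond the limit and was highest at ZT9 in B73 (2.04) and MB (2.21), and at ZT3 in Mo17 (1.89) and BM (2.13).

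The clearest difference between inbreds and hybrids in how peaks were cut was at the start of GRMZM2G394732. At locus 9, chr5:209992549-209999374, both inbreds had 2 peaks with a gap of 464 bp between them, from 209993808 to 209994272 in B73 and from 209993810 to 209994274 in Mo17. The gene is read on the minus strand from 209994048, so its start lay inside the gap, which ran from 240 bp within the gene to 224 bp upstream in B73 and from 238 to 226 bp in Mo17. Both hybrids instead had 1 unbroken peak over the same locus, of 6783 bp in BM and 6825 bp in MB, which covered the gene start. The lists were merged over the time points, so at which of them the gap was bridged cannot be told apart.

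The split separated a very strong short peak from a moderate long one. The short peak over GRMZM2G394732 gave 4.51, 4.27 and 5.35 at ZT3, ZT9 and ZT15 in B73 and 4.27, 4.60 and 5.27 in Mo17. The long peak gave 2.07, 2.05 and 2.71 in B73 and 2.14, 2.22 and 2.41 in Mo17. The short peak was thus above the long one at every time point, by 2.44, 2.22 and 2.64 in B73 and by 2.13, 2.38 and 2.86 in Mo17 on the log2 scale. The joined peak of the hybrids gave 2.76, 2.30 and 1.98 in BM and 2.84, 2.12 and 2.33 in MB. How the value of a peak was computed over its length is not given in the sources used here, so the joined peak was not set against the short peak alone.

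As an approximation, the 2 inbred peaks of locus 9 were averaged by width, which leaves out the gap that the hybrid peak spans. B73 gave 2.55, 2.49 and 3.24 and Mo17 2.56, 2.70 and 2.98 on this footing, both highest at ZT15, whereas the hybrid values above were highest at ZT3. At ZT3 both hybrids lay above both inbreds (hybrid mean 2.80, inbred mean 2.56). At ZT9 the order was turned, with 2.21 against 2.59, and at ZT15 the hybrid mean was 2.16 and the inbred mean 3.11. The log2 difference, hybrids minus inbreds, went from 0.25 at ZT3 through -0.38 at ZT9 to -0.95 at ZT15.

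The cut also moved the gene names. In the inbred lists the short peak was assigned to GRMZM2G394732, whereas no peak of the hybrid lists carries that gene, and the joined peak was assigned to GRMZM2G055151, whose start lies 391 bp away in BM and 350 bp in MB. The joined peak nevertheless overlapped 1498 bp of GRMZM2G394732 in BM and 1499 bp in MB, so by overlap the gene had a peak in all 4 lists and by assignment in 2. GRMZM2G102843 shows the same: a peak covered its whole length of 3876 bp in every list, but only B73 names it, for a peak 5963 bp away.

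**Figure D2:**
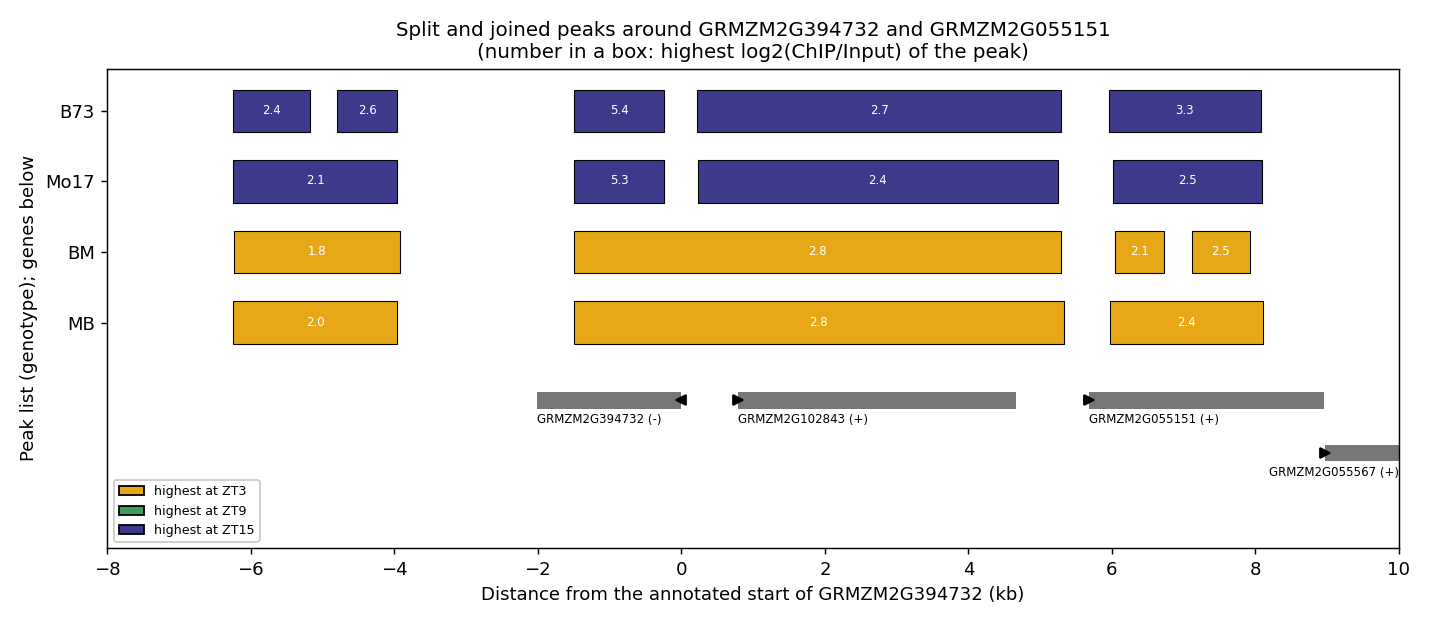
Enlarged map of the loci that are split in some lists, with the same colours and numbers as in the map of the whole block. In B73 and Mo17 a gap of 464 bp lies over the start of GRMZM2G394732 (distance 0), and in BM and MB a single peak runs across it.

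2 other loci were split in a single list. Locus 8, chr5:209987806-209990133, overlapped no gene named in the lists and was split in B73 only, by a gap of 387 bp. Both pieces were highest at ZT15, with 1.87, 1.99 and 2.35 in the first and 1.94, 2.18 and 2.60 in the second. The unsplit peak gave 1.91, 2.00 and 2.14 in Mo17, 1.79, 1.64 and 1.47 in BM and 2.03, 1.5 and 1.71 in MB. Locus 10, chr5:210000003-210002150, within GRMZM2G055151, was split in BM only, by a gap of 396 bp that began 1044 bp downstream of the gene start. The first piece gave 2.09, 1.25 and 1.28 and the second 2.45, 1.95 and 1.79, both highest at ZT3. The remaining 12 of 15 loci were 1 peak in each list, a share like that over the genome, 373 of 471 loci. Split loci were thus not more frequent here than elsewhere. How many of the 471 were split in both inbreds and joined in both hybrids was not counted.

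GRMZM2G055151 had 3 assigned peaks each in B73, Mo17 and MB, as many as GRMZM2G427444 and GRMZM2G055859, and 4 in BM. Of these, the peak of locus 10 lay in the gene itself. There, B73 gave 2.41, 2.41 and 3.28 and Mo17 2.13, 2.25 and 2.53, and BM gave 2.29, 1.63 and 1.56 and MB 2.44, 1.64 and 2.00, BM being the width-weighted mean of its 2 pieces. The inbreds rose towards ZT15 and the hybrids were highest at ZT3. At ZT15 the inbred mean was 2.91 and the hybrid mean 1.78, the widest separation between hybrids and inbreds of the 15 loci at that time point (-1.13).

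GRMZM2G427369, on the minus strand at chr5:209965064-209971549, had 1 peak of 691 to 702 bp in every list, inside the gene. At this locus, chr5:209966474-209967180, B73 gave 2.13, 1.61 and 2.38 and Mo17 2.24, 1.46 and 2.35 at ZT3, ZT9 and ZT15. Of the hybrids, BM gave 2.38, 1.47 and 1.26 and MB 2.25, 1.29 and 1.67. B73, Mo17 and MB were lowest at ZT9 and BM at ZT15. The genotypes were nearly level at ZT3, where the values ran from 2.13 to 2.38, and they parted at ZT15, where both inbreds (2.38 and 2.35) lay above both hybrids (1.26 and 1.67). BM fell by 1.12 from ZT3 to ZT15, the largest fall of any locus and list in the block. With the list medians subtracted this was the one locus of 15 at which both inbreds stayed highest at ZT15 and both hybrids at ZT3, with 0.59 at ZT3 and 0.43 at ZT15 in BM, and 0.74 and 0.71 in MB.

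GRMZM2G358180, next to GRMZM2G427369 on the same strand, had 2 peaks per list, and one of them, locus 7 (chr5:209975120-209976486), was the highest of the 15 loci in B73 and BM at every time point when split loci are averaged by width. In B73 the short peak of locus 9 taken alone was higher still, as given above. Here B73 gave 3.25, 3.38 and 3.99 and Mo17 2.19, 2.11 and 2.79, and BM gave 2.95, 2.89 and 2.19 and MB 2.92, 2.02 and 2.54. It was the locus that set B73 furthest from Mo17, by 1.06, 1.28 and 1.20 at ZT3, ZT9 and ZT15. At the other, locus 6, B73 gave 2.31, 2.53 and 3.09 and Mo17 2.03, 2.02 and 2.38, and BM gave 1.96, 2.15 and 1.48 and MB 2.27, 1.60 and 1.91. BM was highest at ZT9 there, unlike MB.

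The lower end of the block held the long gene GRMZM2G427444 and, running into it from the other strand, GRMZM2G427557. At locus 1, assigned to GRMZM2G427557, B73 gave 1.63, 1.71 and 2.08 and Mo17 1.75, 1.68 and 1.86, and BM gave 1.54, 1.60 and 1.27 and MB 1.79, 1.29 and 1.56. At locus 2, a wide peak reaching into both genes, B73 gave 1.96, 1.90 and 2.47 and Mo17 1.99, 2.03 and 2.26, and BM gave 1.96, 1.78 and 1.48 and MB 2.08, 1.56 and 1.84. Locus 1 and locus 2 both rose from ZT3 to ZT15 in the inbreds and fell in the hybrids. Locus 3, inside GRMZM2G427444, changed little in the inbreds: B73 gave 2.17, 2.04 and 2.32 and Mo17 2.04, 1.96 and 2.11, and BM gave 1.72, 1.75 and 1.49 and MB 1.86, 1.54 and 1.53. Locus 4, inside the same gene, rose most of these, by 0.74 from ZT3 to ZT15 in B73 and by 0.61 in Mo17, and it fell by 0.52 in BM and by 0.22 in MB.

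The upper end held GRMZM2G055567 and GRMZM2G055859, both on the plus strand. At locus 11, in GRMZM2G055567, B73 gave 2.05, 2.06 and 2.50 and Mo17 2.16, 1.80 and 2.34, and BM gave 1.92, 1.86 and 1.68 and MB 2.14, 1.34 and 1.89. Its neighbour locus 12, in the same gene, had a like course, with 1.92, 1.88 and 2.53 in B73 and 1.85, 1.76 and 2.23 in Mo17, with 1.88, 1.64 and 1.43 in BM and 1.98, 1.40 and 1.80 in MB. The start of GRMZM2G055859 was covered in the hybrids and missed in the inbreds, but by a small margin. The peak of locus 13 ended 45 bp before the gene in B73 and 48 bp before it in Mo17. It reached 34 bp into the gene in BM and 19 bp in MB. The 4 ends spanned 82 bp, near the median of 79 bp over the 15 loci. Values at locus 13 were 1.74, 1.76 and 2.22 in B73 and 1.84, 1.85 and 2.03 in Mo17, with 1.86, 1.5 and 1.43 in BM and 1.81, 1.46 and 1.75 in MB.

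Locus 14, a peak of 379 to 391 bp inside GRMZM2G055859, was the exception to most statements on the block. B73 gave 1.60, 1.71 and 1.52 and Mo17 1.58, 1.66 and 1.74, so B73 was highest at ZT9 and fell by 0.08 from ZT3 to ZT15. BM gave 1.48, 1.34 and 1.29 and MB 1.34, 1.53 and 1.5, so MB rose by 0.16. It was the shortest locus and, at ZT3, the lowest one in every list. The last locus, 15, returned to the common course, with 1.68, 1.93 and 2.54 in B73 and 2.19, 1.55 and 2.36 in Mo17, and with 2.13, 1.42 and 1.64 in BM and 2.01, 1.20 and 1.87 in MB.

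Taking all peaks of the window together, weighted by width, B73 had a mean log2(ChIP/Input) of 2.12 in the morning, 2.12 at ZT9 and 2.70 at ZT15. Mo17 had 2.09, 2.07 and 2.41. BM had 2.12, 1.89 and 1.60, and MB 2.17, 1.60 and 1.87. The genotypes were level in the morning, 2.09 to 2.17, and spread to 1.60 to 2.70 at ZT15, where both inbreds were above both hybrids. From ZT3 to ZT15 the mean as deposited rose by 0.58 in B73 and 0.32 in Mo17 and fell by 0.52 in BM and 0.30 in MB. Relative to the list medians it rose in every genotype, as given below. BM fell at each step, whereas MB was lowest at ZT9 and recovered by 0.27 to ZT15. Hybrids minus inbreds came to 0.04 at ZT3, -0.35 at ZT9 and -0.82 at ZT15. With 2 hybrids and 2 inbreds, no two-sided exact permutation test can give a p below 0.333, so none of these differences could pass 0.05 and no test is drawn on.

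**Figure D3:**
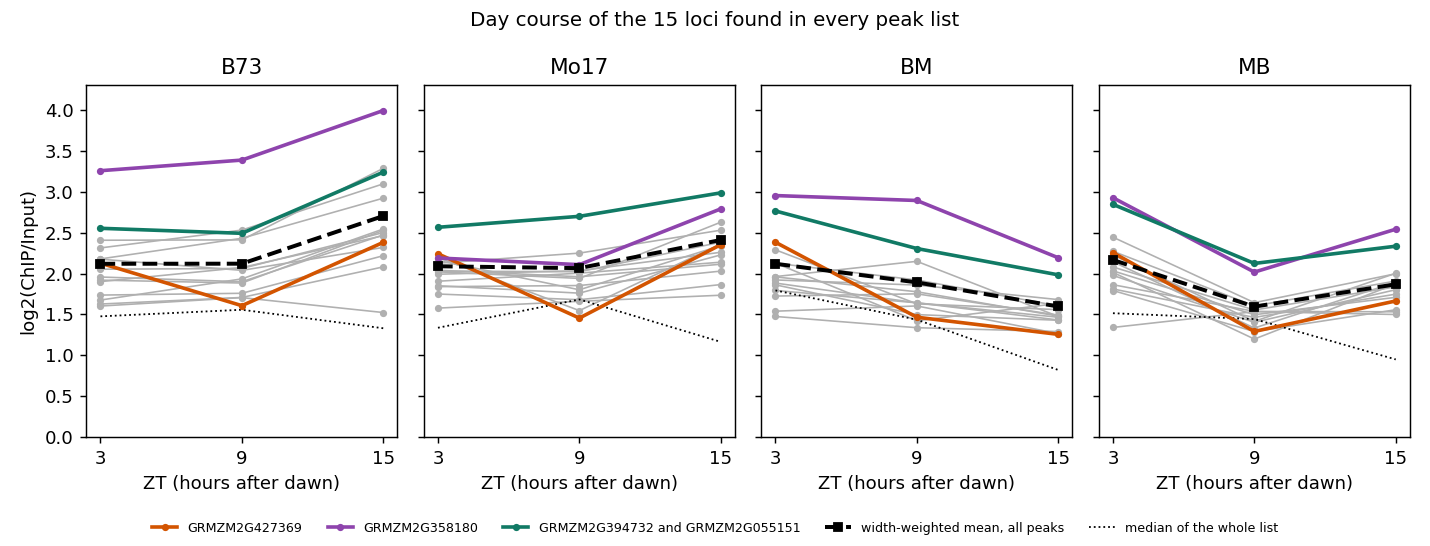
Day course (hours after dawn) of log2(ChIP/Input) at the 15 loci found in every list (lines, split peaks averaged by width), with the width-weighted mean over all peaks of the window (dashed) and the median of the whole list (dotted). Coloured lines are locus 5 (GRMZM2G427369), locus 7 (GRMZM2G358180) and locus 9 (GRMZM2G394732 and GRMZM2G055151). The mean ends at 2.70 and 2.41 in B73 and Mo17 and at 1.60 and 1.87 in BM and MB.

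Peak by peak, the time point of the highest value divided the inbreds from the hybrids. In B73, 17 of 18 peaks were highest at ZT15, against 26.3% of the whole B73 list, and 1 at ZT9 (37.8%). In Mo17 it was 16 of 16, against 23.0%, and 0 at ZT9 (48.4%). In BM, 13 of 16 peaks were highest at ZT3, against 63.2% of its list, and 3 at ZT9 (31.1%). In MB, 15 of 17 were highest at ZT3, against 51.7%, and 2 at ZT9 (35%). No hybrid peak was highest at ZT15 (list share 5.69% in BM and 13.3% in MB), and no inbred peak at ZT3 (36.0% in B73 and 28.6% in Mo17). The ZT3 shares of the hybrids were thus nearer to their background than the ZT15 shares of the inbreds were. The lead over the next time point was often small. It was at least 0.5 in 8 of 18 B73 peaks and 3 of 16 Mo17 peaks. In BM it was so in 3 of 16 peaks and in MB in 2 of 17. The whole lists had such a lead in 1734 of 3364 peaks in B73 and 1076 of 2102 in Mo17. For BM this was 1753 of 2796 and for MB 1148 of 1874. The median lead in B73, Mo17, BM and MB was 0.474, 0.185, 0.195 and 0.244 in the window. Over the lists it was 0.519, 0.525, 0.680 and 0.638, so leads here were smaller than usual, least so in B73.

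The 15 loci could be compared in the same place across genotypes, beside all 471 loci found in every list. At ZT15 both hybrids lay below both inbreds at 15 of 15 loci (54.8% of all loci), and at ZT9 at 11 of 15 (39.3%). At ZT3 they lay below them at 2 of 15 (8.28%) and above them at 2 of 15 (30.4%). ZT15 minus ZT3 was above 0 in both inbreds and below 0 in both hybrids at 14 of 15 (27.0%), locus 14 being the exception. Inbreds were highest at ZT15 and hybrids at ZT3 at 11 of 15 (15.7%), all but loci 1, 3, 6 and 14. ZT3 stood out more from the average of the later time points in each hybrid than in each inbred at 14 of 15 (61.6%). Loci of a block share their libraries and are not independent.

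Within the pairs of genotypes the loci also leaned one way. At ZT15 B73 exceeded Mo17 at 14 of 15 loci (56.5% of all loci), with a median of 0.22, and at ZT9 at 12 of 15 (38.4%). At ZT3 it did so at 7 of 15 (53.3%), and BM exceeded MB at 5 of 15 (54.1%). At ZT9, BM exceeded MB at 13 of 15 loci (60.9%), with a median of 0.22, but at 0 of 15 at ZT15 (23.6%), where the median was -0.35. The order of the reciprocal hybrids thus switched between those time points, although the lists give no replicate spread to set this against.

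**Figure D4:**
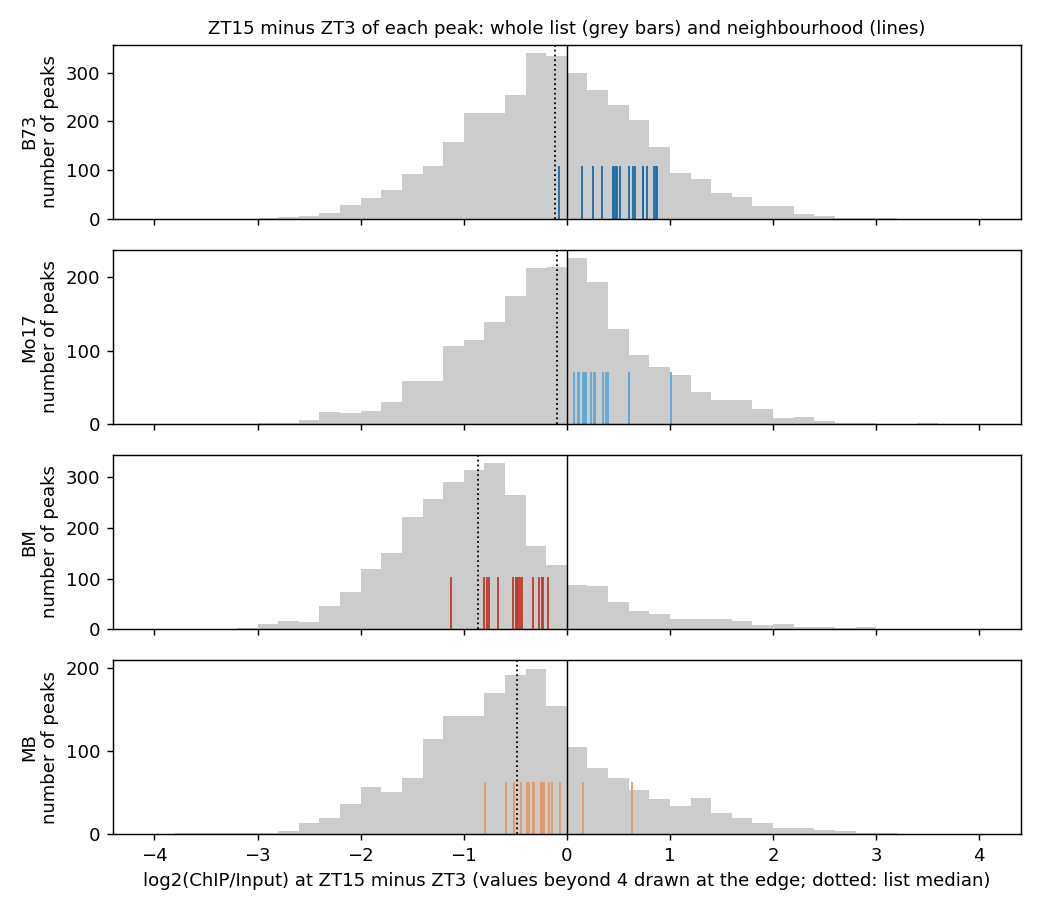
ZT15 minus ZT3 of log2(ChIP/Input) for every peak of a list (grey histogram, dotted line at the list median) and for the peaks of the window (coloured lines). Window peaks lie above 0 in 17 of 18 cases in B73 and 16 of 16 in Mo17, and below 0 in 16 of 16 in BM and 15 of 17 in MB, but to the right of the list median in most cases in all lists.

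The whole lists also differed between ZT3 and ZT15. The list median of ZT15 minus ZT3 was -0.11 in B73 and -0.10 in Mo17, with -0.87 in BM and -0.49 in MB, so the median hybrid peak fell. ZT15 was above ZT3 in 17 of 18 window peaks in B73 (44.3% of the list), 16 of 16 in Mo17 (44.7%), 0 of 16 in BM (14.2%) and 2 of 17 in MB (27.2%). With the list median subtracted at each time point, the window rose from ZT3 to ZT15 in every genotype, by 0.73 in B73 and 0.49 in Mo17, with 0.45 in BM and 0.27 in MB. The ZT15 maximum then held in 18 of 18 B73 peaks (33.4% of the list), 16 of 16 Mo17 peaks (36.9%), 13 of 16 BM peaks (33.7%) and 15 of 17 MB peaks (34.4%), 62 of 67 in all. Relative to its own list, the neighbourhood was thus highest at ZT15 in hybrids as well, and the opposite phases of the values as deposited were left at 1 of 15 loci, that of GRMZM2G427369 (2.34% of all loci). At ZT15 both hybrids still lay below both inbreds at 14 of 15 loci (28.5%).

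Ranked by highest value, the short GRMZM2G394732 peak was 4 in B73 and 5 in Mo17, and by its ZT15 value it was 2 in both. In the hybrids the same stretch lay within the joined peak, so it has no value or rank of its own there. The joined peak ranked 51 in BM and 27 in MB, but it is much longer, so these ranks do not compare like with like. The lists differ in length, so further ranks are given as shares of the list first. The higher GRMZM2G358180 peak, at locus 7, stood in the top 0.238% of the B73 list and 1.76% of the Mo17 list, and in the top 0.680% of the BM list and 1.12% of the MB list. The median window peak stood in the top 6.32% of the B73 list, 13.8% of the Mo17 list, 45.5% of the BM list and 37.7% of the MB list. By ZT15 values alone the median rank was in the top 3.12% in B73 and 4.59% in Mo17, with 13.7% in BM and 13.7% in MB, and by ZT3 values 20.4%, 17.7%, 38.2% and 22.0%.

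The lowest window peak ranked 2525 in B73 and 1427 in Mo17, with 2488 in BM and 1649 in MB. Locus 14 was that peak in B73, Mo17 and BM and the GRMZM2G069099 peak in MB. The peak of GRMZM2G427369 ranked 376 in B73 and 282 in Mo17, with 357 in BM and 339 in MB, within the top 11.2% to 18.1% of each list. By ZT15 alone its ranks were 161, 94, 662 and 357. The values of the 15 loci ran alike between lists: Pearson's r across loci was 0.62 to 0.94 over 18 pairs of lists at a time point. It was 0.51 to 0.92 over 12 pairs of time points within a list. The order of the loci, by Spearman's rank correlation, was shared between lists, from 0.59 (BM and MB at ZT9) to 0.94 (B73 and MB at ZT15). Between time points of a list it was shared less evenly, from 0.24 (Mo17, ZT3 and ZT9) to 0.84 (B73, ZT9 and ZT15). These loci share libraries and width differences, and the coefficients are a description.

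**Figure D5:**
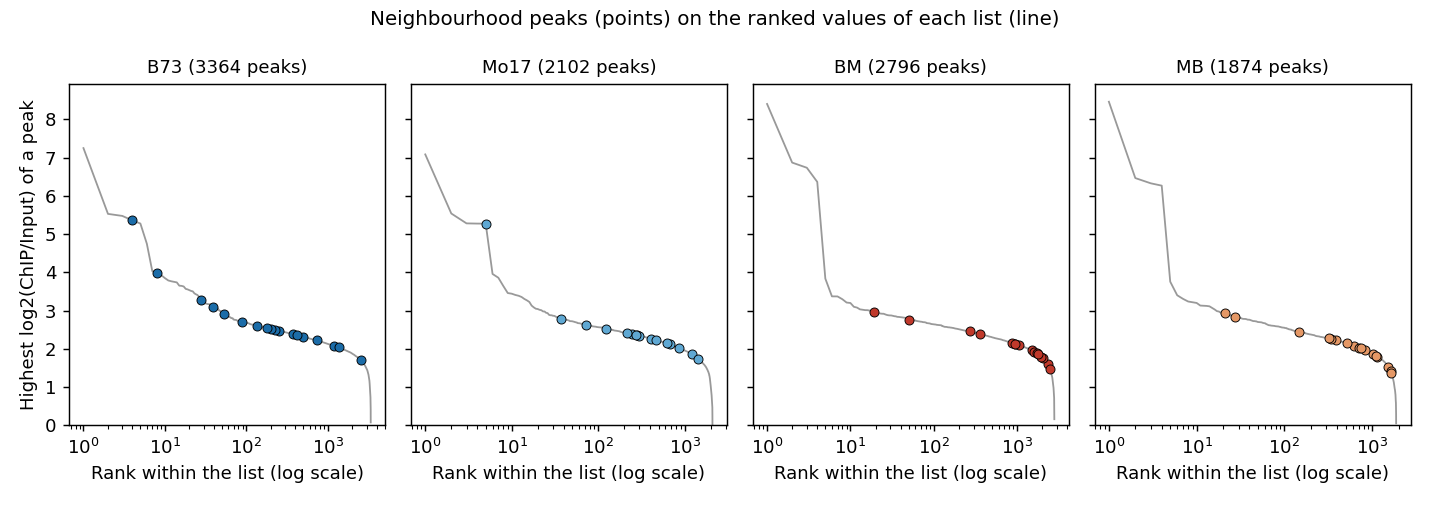
Highest log2(ChIP/Input) of each peak against its rank within the list on a log scale (line), with the peaks of the window as points. The window reaches rank 4 in B73 and 5 in Mo17, at the short GRMZM2G394732 peak that is joined to its neighbour in the hybrids, and 19 in BM and 21 in MB, at GRMZM2G358180.

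Of 67 peaks, 55 overlapped the gene they were assigned to (82.1%, against 73.9% of all 10136 peaks), and 61 overlapped a gene named in any of the lists (91.0%, against 76.1%). Only genes to which the lists assign a peak could be looked at. The starts of GRMZM2G427557, GRMZM2G427444 and GRMZM2G102843 lay under a peak in all lists. Those of GRMZM2G394732 and GRMZM2G055859 did so in the hybrids only, 5 gene starts in all against 3 in the inbreds. At GRMZM2G055859 this rested on peak ends that spanned 82 bp, near the median span of 79 bp over the 15 loci. The share of gene starts covered over the whole lists was not counted, so no difference between hybrids and inbreds is drawn from these counts. The start of GRMZM2G427369 was under no peak in any list.

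Genes outside the window with the most similar values were found by Euclidean distance over the highest log2 of their peaks. For GRMZM2G427369, over 12 values and 411 genes, these were GRMZM5G844143 (distance 0.71), GRMZM2G115168 (0.86) and GRMZM2G028745 (0.88), with a median distance of 2.11 over the genes compared. For GRMZM2G055151 they were GRMZM2G057495 (0.83), GRMZM2G385622 (0.88) and GRMZM2G448151 (0.90), with a median of 3.15. The values of GRMZM2G055151 came from the joined peak of locus 9 in the hybrids and mostly from locus 10 in the inbreds. Its nearest genes thus rest on a mix of unlike sites. GRMZM2G394732 could be compared over 6 inbred values only, among 840 genes, and its nearest were GRMZM2G020929 (2.19), GRMZM2G168077 (2.29) and GRMZM2G066485 (2.37), with a median of 7.83.

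Of 7 other genes that the study took up for carbon fixation, which were looked at as the wider pathway, 3 had a peak in B73 and 2 in Mo17, with 3 in BM and 2 in MB. GRMZM2G448142, described as an ATP synthase beta subunit gene on chromosome 1, was the one with peaks in all lists. Its stronger peak gave 1.96, 2.23 and 2.69 at ZT3, ZT9 and ZT15 in B73 and 2.03, 2.18 and 2.22 in Mo17. In BM it gave 2.04, 2.1 and 1.61 and in MB 2.18, 1.76 and 1.93. As deposited, this peak too was highest at ZT15 in the inbreds and earlier in the hybrids. The list medians, which were not subtracted here, also fell from ZT3 to ZT15 in the hybrids, from 1.79 to 0.82 in BM and from 1.52 to 0.95 in MB. The same peak overlapped GRMZM2G448151 (chr1:203905970-203907361), named above among the genes nearest to GRMZM2G055151. The highest peaks of GRMZM2G129513 (a malate dehydrogenase, B73 only, 2.29) and of GRMZM2G398288 (2.02 in B73, 2.22 in Mo17 and 1.99 in BM) were at ZT9. GRMZM2G126988, a starch synthase gene, had peaks in the hybrids only, with a highest value of 2.30 at ZT3 in BM and 2.33 at ZT9 in MB. No peak was assigned to GRMZM2G121612, GRMZM2G033885 or GRMZM2G412611. Assignment can miss a gene that a peak overlaps, as at GRMZM2G394732 in the hybrids. For GRMZM2G121612 and GRMZM2G033885 the study reported ZmCCA1 binding by ChIP-qPCR, and binding of recombinant ZmCCA1b to their promoters in vitro. It also assayed GRMZM2G394732 by ChIP-qPCR, in a ZmCCA1b overexpression line, its inbred control and a hybrid of that line with Mo17. The study reported more binding in the overexpression line and a shift to ZT3 in the hybrid.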

How the data were processed

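The authors mapped uniquely placed read pairs of B73 and Mo17 to the genome of the same line and hybrid reads to whichever of both matched better, and down-sampled all libraries to the same number of reads and called peaks in each ChIP library against its input; the submitters' processing notes name MACS2 2.0.1. Peaks found in 2 replicates were merged over the 3 time points into 1 list per genotype. The deposited value of a peak is a log2 ratio of ChIP over input; how replicates were combined is not given in the sources used here, and with no counts the depth behind a value is unknown. Coordinates are as deposited (AGPv2).

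The peaks, genes and comparisons were chosen with earlier results of these data known. Named genes were the 3 genes of the window, every other gene assigned there, the 3 genes outside it nearest to each, and 7 genes of the pathway. Values over several peaks are width-weighted means. Peaks overlapping by at least 1 bp formed a locus. The exact permutation test over 2 hybrids and 2 inbreds cannot go below 0.333. Alternatives were median and mean centring within each list, equal weights, a lead of at least 0.5, peaks within 1 kb joined, a reciprocal overlap of 50%, limits moved by 100 kb, a minimum highest value of 1.5, and each genotype left out. Scripts were tested on simulated data and used Python 3.11.15, pandas 2.3.3, numpy 2.4.6 and scipy 1.17.1. Gene names were as in the lists, since RefSeq synonyms matched 1 of 10.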

Additional observations from a re-analysis of the deposited data

Results flagged for a closer look

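From ZT3 to ZT15 the width-weighted mean of the window moved in opposite directions in the inbreds and the hybrids. It rose by 0.58 in B73 and by 0.32 in Mo17, and it fell by 0.52 in BM and by 0.30 in MB, a difference of -0.86 between hybrids and inbreds on the log2 scale. Both genotypes of one kind went one way and both of the other kind the opposite way. The difference was not tested, since 2 genotypes against 2 cannot give a two-sided exact permutation p below 0.333. With the list medians subtracted, the window rose in all 4 genotypes and the difference was -0.25.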

How the results depend on the processing

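No paired analysis was possible because the lists hold a single value per genotype and time point and no replicate values, and no replicate could be left out for the same reason. Joining peaks within 1 kb left 11 peaks in B73, 10 in Mo17 and 10 in BM. With a lead of at least 0.5, ZT15 was the highest time point in 8 B73 and 3 Mo17 peaks, and ZT3 in 3 BM and 2 MB peaks. Leads of that size were more frequent over the whole lists, as given above. Median centring within each list turned the phase of most hybrid peaks: it left ZT3 highest in 1 BM and 2 MB peaks, made ZT15 highest in 13 BM and 15 MB peaks, and left 1 locus with inbreds highest at ZT15 and hybrids at ZT3. Counting overlap in place of assignment gave GRMZM2G394732 a peak in 4 lists. The differences between hybrids and inbreds kept their sign under every alternative run, but centring shrank them. For the excess of ZT3 over the mean of ZT9 and ZT15, hybrids minus inbreds came to 0.62 as deposited. It was 0.11 after median centring, 0.21 after mean centring and 0.39 without ZT15. For ZT15 minus ZT3, hybrids minus inbreds went from -0.86 to -0.25 and -0.34 with median and mean centring. With median centring it went from -1.04 to -0.43 at GRMZM2G427369 and from -1.28 to -0.67 at GRMZM2G055151. The values of GRMZM2G055151 were the highest over its assigned peaks, so they compare unlike sites. They came from the joined peak of locus 9 in the hybrids and mostly from locus 10 in the inbreds. As deposited, the difference was -1.20 with peaks overlapping the gene only and -1.07 with a mean weighted by width. Leaving out a genotype gave differences between hybrids and inbreds of 0.55 to 0.70 in the excess of ZT3 and -0.99 to -0.73 in ZT15 minus ZT3. Mean centring and the alternatives for ZT15 minus ZT3 were chosen after seeing the data. The list medians differ between time points and genotypes, and whether they reflect depth or binding was not tested.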
